A study of Mus musculus with 12 samples.

Results

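Collagen genes were followed across a series of 12 RNA sequencing libraries from mouse fibroblasts. They were taken as all protein-coding rows of the deposited count table whose symbol has the form of a collagen alpha chain (Col, a type number, a and a chain number). This rule gave 44 genes among 54447 rows, of which 11 encode fibrillar collagens, 8 basement membrane collagens and 25 other collagens. Over the 12 libraries, 26 of them reached an average of 1 CPM (read counts scaled to a common library total, with totals normalised between libraries), namely 8 fibrillar, 5 basement membrane and 13 other collagens, and the same 26 passed the low-count filter of the test. The rule used the gene symbol and the mean level alone. The least abundant of the 26 was Col20a1 with 1.02 CPM, and the most abundant gene left out was Col4a4 with 0.388 CPM.

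The cells were mouse embryonic fibroblasts in the labels and NIH3T3 cells, an immortal line of mouse embryo fibroblasts, in the study's methods. N-VEGF is the amino-terminal portion of a long form of vascular endothelial growth factor (VEGF). In NLS-N-VEGF the nuclear localization sequence of Cas9 was added to it. Both were His-tagged, delivered by lentivirus and placed under a Tet-on promoter that doxycycline (dox) switches on, so that the cells without dox carried the construct too. Each population was sequenced without and with dox, which gave 4 groups of 3 libraries. No group of cells without a construct but with dox was among them, so that an effect of dox itself and an effect of the construct cannot be told apart within a population. Each group held libraries 1 and 2 with the label suffix _120519 and a library 2 with the suffix _290419, and what the suffix stands for is not given in the labels. Values of a group are given below in that order, with the value of suffix _290419 last.

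Collagens are the main structural proteins of the extracellular matrix, and fibroblasts are among their chief producers. Each molecule is a triple helix of alpha chains, which may be products of the same gene or of different genes. Fibrillar collagens (types I, II, III, V, XI, XXIV and XXVII) assemble into fibrils, in which type I carries most of the tensile load, and types III and V regulate fibril diameter. Type IV collagen forms the sheet-like network of basement membranes, with which type XVIII is associated. The remaining types include the beaded microfibrils of type VI, the fibril-associated collagens (FACITs), the anchoring fibrils of type VII and the transmembrane collagens.

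Several collagen genes lie beside a partner chain, and these pairs are shown first because their transcripts are compared further on. On build GRCm38, Col4a1 (chr8:11198423-11312826, minus strand) and Col4a2 (chr8:11312805-11449287, plus strand) start head to head and their annotated 5′ ends overlap by 22 bases. Those shared bases, given on the plus strand, hold a GC box, the only motif in capitals.
Col4a1 and Col4a2 overlap, chr8:11312805-11312826: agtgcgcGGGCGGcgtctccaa
Col4a5 (chrX:141475385-141689234, plus) and Col4a6 (chrX:141165403-141474076, minus) also start head to head, with 1308 bases between them. Col3a1 (chr1:45311538-45349706, plus) and Col5a2 (chr1:45374321-45503282, minus) point toward each other across 24614 bases, and Col6a1 (chr10:76708792-76726168, minus) lies 85161 bases from Col6a2 (chr10:76595762-76623630, minus) in the same direction.

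The sequences upstream of 2 abundant fibrillar genes are shown because Col3a1 passed the test between the label suffixes below and Col1a2 (chr6:4504814-4541544, plus strand) did not. Both are plus-strand RefSeq sequence of build GRCm38.p6, limited to bases in no annotated exon. The RefSeq start of Col1a2 lies within the gene as annotated by GENCODE, so that its stretch does too. Capitals mark a TATA motif, searched as TATAAA, or a GC box, searched as GGGCGG. The CCAAT motif was searched by the letters of its name and was found in neither, and all searches covered both strands.
Col1a2, chr6:4505370-4505492: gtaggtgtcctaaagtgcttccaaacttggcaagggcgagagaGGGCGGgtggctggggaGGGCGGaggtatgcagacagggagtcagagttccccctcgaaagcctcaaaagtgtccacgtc
Col3a1, chr1:45311288-45311537: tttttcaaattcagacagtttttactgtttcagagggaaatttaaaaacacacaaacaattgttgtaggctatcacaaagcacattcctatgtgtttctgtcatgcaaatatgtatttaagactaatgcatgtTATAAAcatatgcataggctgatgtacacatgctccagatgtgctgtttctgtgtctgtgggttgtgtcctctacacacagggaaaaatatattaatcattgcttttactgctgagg
The Col1a2 stretch of 123 bases had 2 GC boxes and 59.3% G or C. The Col3a1 stretch of 250 bases had 1 TATA motif and 35.2% G or C. Because the stretches differ in length, their motifs are not compared on an equal base. Of the 44 collagen genes, 35 were in the RefSeq promoter table, with 38 promoters. In the 250 bases before the start, the TATA letters stood in 13.2% of the collagen promoters and 12.4% of all 32851 promoters, the CCAAT letters in 34.2% and 33.8%, and the GC box letters in 57.9% and 32.7%. A match of letters is a description and not a binding site.

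Total counts were 13549331 to 18982127 per library, which sets the level of 3 counts at 0.158 to 0.221 CPM. The row of the construct insert held 5 to 12 counts in the 6 libraries without dox and 35 to 268 counts in the 6 with dox, so that each library stood on the side its label gives. Fibroblast genes were abundant in every library (Vim 3635 to 5288 CPM, Thy1 119.5 to 213.8 CPM and Pdgfra 92.9 to 428 CPM). Markers of other cells were low, except for Sox9. The summed level of 4 endothelial markers was 2.39 to 4.49 CPM, with Kdr at 0 counts in 10 libraries, and that of 4 leukocyte markers was 8.24 to 13.5 CPM, with Adgre1 at 0 in 11 and Ptprc at 0 in 6 libraries. The sum of 4 epithelial markers was 0.880 to 1.88 CPM, with Epcam at 0 in 11 libraries, and that of 3 muscle markers 0.123 to 0.804 CPM, with Myod1 and Myog at 0 in all 12. Of 4 cartilage and bone markers, Acan, Bglap and Sp7 were below 0.3 CPM throughout, and Sox9 was at 118.5 to 173.1 CPM. In bulk RNA, fewer cells of a type and less RNA per cell cannot be told apart.

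A type I chain led the collagen transcripts of these cells. Col1a2, which encodes the alpha 2 chain of type I collagen, stood at 2994 ± 304 CPM (SD over the 12 libraries) and took 37.8% of all collagen counts on average, with 34.4% to 43.9% in single libraries. Col1a1, the alpha 1 chain of the same molecule, stood at 527 ± 87.0 CPM. The other abundant fibrillar genes were Col3a1 (type III) at 447.5 ± 173 CPM, Col5a2 at 297 ± 120 CPM and Col5a1 at 236 ± 34.2 CPM, the last 2 being chains of type V collagen, which takes part in starting fibrils. The remaining 3 fibrillar genes were expressed at much lower levels, where Col27a1 had 19.2 ± 2.60, Col5a3 7.81 ± 1.54 and Col11a2 3.88 ± 1.70 CPM. Col1a2 lay above every other collagen gene in all libraries.

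Abundant genes were also found among the basement membrane and other collagens, of which Col6a1 and Col6a3 lay above Col1a1. Col4a1 (393 ± 81.8 CPM) and Col4a2 (288 ± 45.8 CPM), the chains of the most widespread type IV network, exceeded Col4a5 (104 ± 10.2 CPM) and Col4a6 (56.6 ± 4.07 CPM), and Col18a1, whose product carries endostatin at its end, had 3.11 ± 0.747 CPM. The 3 chains of type VI microfibrils had 818 ± 184 (Col6a1), 430 ± 92.7 (Col6a2) and 753 ± 102 CPM (Col6a3). Col16a1, a FACIT, had 439 ± 33.9 CPM, and Col8a1, a short-chain collagen of sheet-like networks, 114 ± 7.22 CPM. The levels of these 2 genes were among the steadiest of the abundant collagens.

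The 8 remaining genes of the other class lay below 10 CPM. These were Col17a1 (6.72 ± 0.588 CPM), a transmembrane collagen of hemidesmosomes, Col12a1 (4.76 ± 2.44 CPM), a FACIT of type I fibrils, and Col7a1 (3.52 ± 2.34 CPM), the anchoring fibril collagen. They further comprised Col28a1 (2.12 ± 1.69 CPM), Col10a1 (1.98 ± 0.646 CPM), the hypertrophic cartilage collagen, and the FACITs Col9a3 (1.84 ± 0.489 CPM), Col22a1 (1.72 ± 0.819 CPM) and Col20a1 (1.02 ± 0.445 CPM). Of the exon bases of Col9a3, 6.07% overlap a gene on the other strand. Since the strand option of the counting is not given in the sources used here, part of its reads may belong to that gene.

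**Figure D1:**
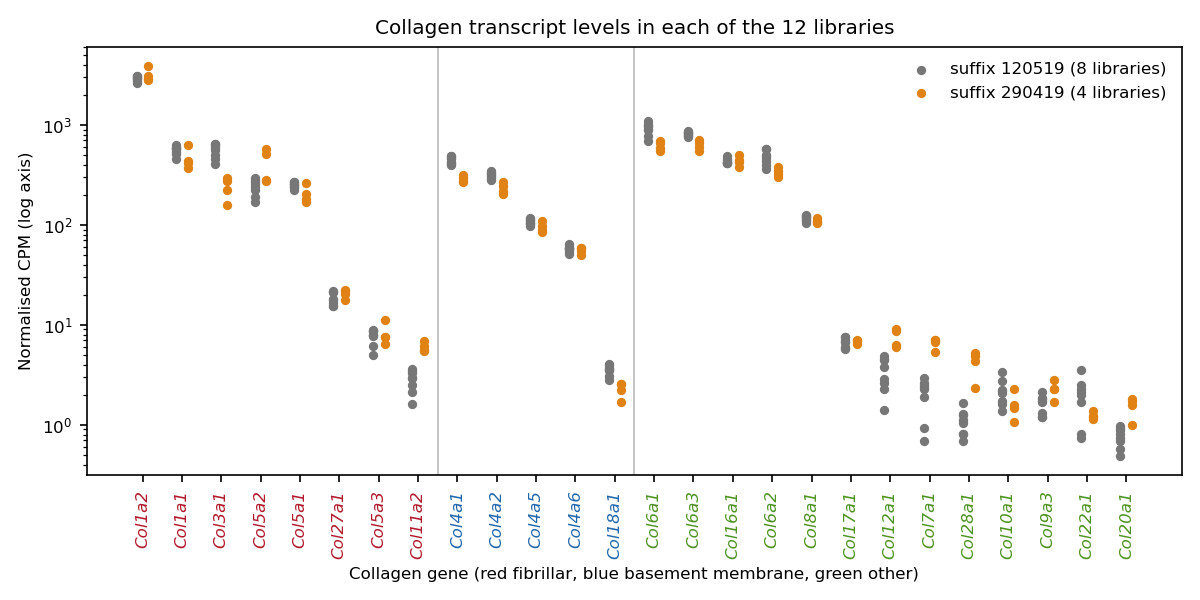
Normalised CPM (log axis) of the 26 collagen genes that averaged 1 CPM or more, 1 point per library, grouped into fibrillar (red names), basement membrane (blue) and other collagens (green) and ordered by mean level. Grey points are the 8 libraries of suffix _120519 and orange points the 4 of suffix _290419; Col1a2 lies highest at 2648 to 3852 CPM, and Col3a1, Col4a1 and Col7a1 are among the genes whose 2 colours do not overlap.

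All collagen genes together took 0.649% to 0.908% of the counts of a library. Fibrillar collagens took 0.453% ± 0.0499, basement membrane collagens 0.0843% ± 0.0135 and other collagens 0.258% ± 0.0369 of counts (SD, n = 12). The 18 genes with less than 1 CPM had at most 10 counts in any library, and 12 of them never more than 3. They include Col2a1 and Col9a1, which mark cartilage, Col15a1 and Col4a3 of basement membranes, and the type VI chains Col6a4, Col6a5 and Col6a6. Col6a4 and Col13a1 had 0 counts in all 12 libraries, which allows up to 0.158 to 0.221 CPM in a library.

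Levels of different genes were compared per kilobase of exon. Over the union of annotated exons, Col1a2 had 241 and Col1a1 80.3 CPM per kilobase, and Col6a1, with 187, lay between them. The 3 genes were the highest by this scale and also with the length of the longest transcript, which gave 560, 88.8 and 199.5 CPM per kilobase. The Col1a2 value depends most on the choice of length, because its annotated exons cover 12426 bases and its longest transcript 5348.

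Ratios between chains that are built into the same molecule, or lie in the same fibril, were formed within each library from counts per kilobase of exon. Such a ratio does not depend on how libraries are scaled. How often ratios of other gene pairs differ by suffix without overlap was not counted. Of single genes, 28.0% of all tested did not overlap between the suffixes, so that a lack of overlap is not particular to these pairs. The ratio of Col1a2 to Col1a1 was 2.58 to 3.07 in the 8 libraries of suffix _120519 and 3.24 to 3.97 in the 4 of suffix _290419 (6.43 on average with the longest transcripts in place of 3.06). The common type I molecule holds more alpha 1 than alpha 2 chains, so that the transcripts stood in the opposite order to the chains of the protein. The ratio of Col3a1 to Col1a1 was 0.594 to 0.738 with suffix _120519 and 0.241 to 0.450 with suffix _290419, again without overlap.

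The balance of the type V chains differed by suffix too. The ratio of Col5a2 to Col5a1 was 0.655 to 0.996 with suffix _120519 and 1.36 to 2.46 with suffix _290419. Between the neighbours Col5a2 and Col3a1 it was 0.282 to 0.656 with suffix _120519, and 1.03 to 3.69 with suffix _290419. The highest of these was that of N-VEGF cells with dox.

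Over all libraries, the ratios of Col6a2 to Col6a1 and of Col4a2 to Col4a1 varied least for their size. That of Col6a3 to Col6a1 spread more widely. Col4a2 to Col4a1 was 0.787 to 0.814 in the 8 libraries of suffix _120519 (0.799 ± 0.00959) and 0.864 to 0.953 in those of suffix _290419 (0.911 ± 0.0384, SD, n = 4). Col4a6 to Col4a5 was 0.410 to 0.583 over all libraries, and Col6a2 to Col6a1 was 0.259 to 0.296, and both overlapped between the suffixes. Col6a3 to Col6a1 was 0.270 to 0.441 with suffix _120519 and 0.368 to 0.374 with suffix _290419.

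**Figure D2:**
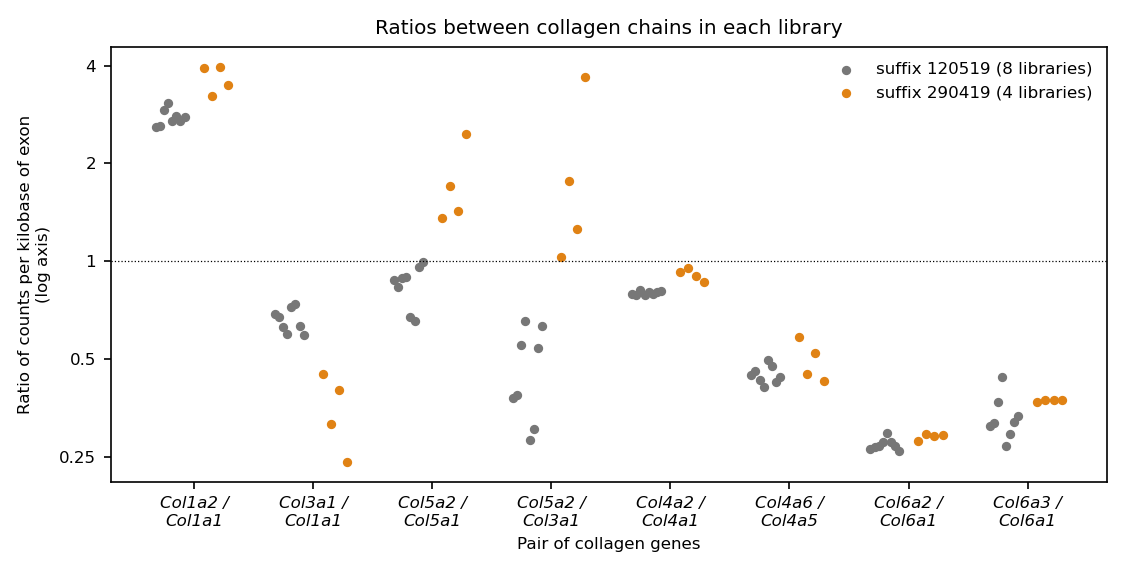
Ratio of counts per kilobase of exon (log axis) between pairs of collagen chains, 1 point per library, with suffix _120519 in grey (8 libraries) and _290419 in orange (4 libraries). Col1a2 to Col1a1, Col5a2 to Col5a1 and Col4a2 to Col4a1 lie higher with suffix _290419, and Col3a1 to Col1a1 lies lower, without overlap. Col6a2 to Col6a1 stays between 0.259 and 0.296. The share of other gene pairs without overlap was not counted.

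Dox in N-VEGF cells was accompanied by a higher level of Col5a2. Its values were 168.5, 192 and 274 CPM when dox was absent and 294, 285 and 569 CPM when it was present. All 3 values with dox lay above all 3 without, and how often this holds over all genes was not counted. The folds of the same-labelled libraries were 1.74, 1.49 and 2.08. In edgeR's quasi-likelihood test without a block, its log2 fold change reached 0.86 (SE 0.31) and the adjusted p was 1.0, with an unadjusted p of 0.0172. This fit called 0 of the 26 collagens and 5 of 13608 genes (0.0367%). Libraries of the same label, and in the main of the same suffix, deviated together from their group means. With the replicate label as a block Col5a2 rose by a log2 fold change of 0.81 (edgeR, SE 0.12, adjusted p 0.00369), as 1 of 15 genes called (0.110%). The call ended when the N-VEGF library with dox of suffix _290419 was left out of the blocked fit (adjusted p 0.0906), and it held without any other library. Within the 8 libraries of suffix _120519 the log2 fold change was 0.67 (edgeR, SE 0.08, adjusted p 0.00869, among 0.120% of genes called).

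In NLS-N-VEGF cells the difference in Col5a2 pointed the same way and did not pass the threshold. The values were 238, 225 and 280 CPM when dox was absent and 269.5, 260 and 511 CPM when it was present. These groups overlapped, and the folds of same-labelled libraries were 1.13, 1.16 and 1.82. The log2 fold change was 0.49 (edgeR, SE 0.31, adjusted p 1.0) without the block and 0.41 (edgeR, SE 0.12, adjusted p 0.28) with it. The test without a block called 0 collagens and 3 of 13608 genes (0.0220%), and the blocked fit 0 collagens and 17 genes (0.125%). Without the block the construct insert itself did not pass in these cells (log2 fold change 3.31, SE 0.67, edgeR adjusted p 0.557). With the block it did (3.19, SE 0.33, edgeR adjusted p 9.31e-05). The fit without a block can therefore miss a large difference. At an unadjusted p under 0.05 and without the block, 1 collagen (Col22a1) and 318 genes stood in NLS-N-VEGF cells, and 1 collagen (Col5a2) and 201 genes in N-VEGF cells. DESeq2's Wald test called 0 collagens in either population.

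Averaged over both populations, Col5a2 was the collagen gene with the lowest p for dox. It was the only 1 of the 26 genes with the same direction in all 6 same-labelled pairs, which held for 5.69% of all genes tested. The mean log2 fold change was 0.67 (edgeR, SE 0.22, adjusted p 1.0) without the block, where 0 collagens and 8 genes (0.0588%) were called. With the block it was 0.61 (edgeR, SE 0.08, adjusted p 0.00113), where Col5a2 was the collagen among 77 genes called (0.566%), and it was called in all 12 blocked fits that left out 1 library. In the same fit 1 of 5 fibroblast markers was called. Pdgfra, a growth factor receptor of fibroblasts, had 428, 397 and 165 CPM in the absence and 292, 276 and 145 CPM in the presence of dox in NLS-N-VEGF cells, and 405, 423 and 168 CPM against 319.5, 291 and 92.9 CPM in N-VEGF cells. It was lower in each of the 6 pairs, with a mean log2 fold change of −0.49 (edgeR, SE 0.08, adjusted p 0.00419), and its part in the collagen values was not tested. The partner chain of Col5a2, Col5a1, was higher with dox in 5 of 6 pairs, with a mean log2 fold change of 0.22 (edgeR, SE 0.07, adjusted p 0.214) in the blocked fit. How often 5 of 6 pairs share a direction over all genes was not counted.

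**Figure D3:**
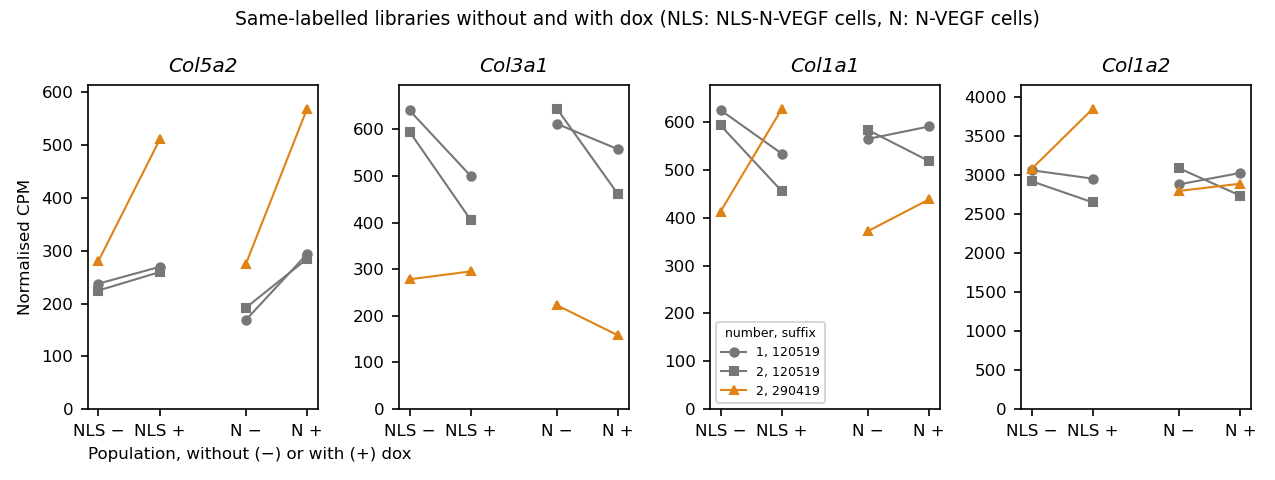
Normalised CPM of Col5a2, Col3a1, Col1a1 and Col1a2 in each library, with lines joining libraries of the same label without (−) and with (+) dox in NLS-N-VEGF (NLS) and N-VEGF (N) cells. All 6 lines of Col5a2 go up, from 168.5 to 280 CPM to between 260 and 569 CPM, whereas Col1a1 and Col1a2 go up in 3 of 6 pairs and Col3a1 in 1 of 6.

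The other collagens did not pass the threshold for dox in either population. In NLS-N-VEGF cells the highest log2 fold changes after Col5a2 were those of Col9a3 (0.41, SE 0.31) and Col7a1 (0.32, SE 0.77). The lowest were those of Col22a1 (−1.26, SE 0.44), Col3a1 (−0.34, SE 0.48) and Col12a1 (−0.32, SE 0.57). Without the block, 13 collagens had a positive and 13 a negative log2 fold change. In N-VEGF cells the highest after Col5a2 were Col7a1 (0.32, SE 0.78) and Col20a1 (0.28, SE 0.52), and the lowest Col28a1 (−0.94, SE 0.82), Col12a1 (−0.56, SE 0.57) and Col3a1 (−0.33, SE 0.48). Here 10 were positive and 16 negative, with a median of −0.04. For the mean over both populations the highest after Col5a2 were Col7a1 (0.32, SE 0.55) and Col20a1 (0.25, SE 0.36), and the lowest Col22a1 (−0.73, SE 0.30), Col12a1 (−0.44, SE 0.41) and Col28a1 (−0.43, SE 0.57).

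Class medians of the dox effect were small over all libraries and moved with 1 library. Median log2 fold changes without the block in NLS-N-VEGF and N-VEGF cells were 0.02 and 0.09 for fibrillar collagens, −0.09 and −0.08 for basement membrane collagens and 0.07 and −0.16 for other collagens. In the blocked fit without the NLS-N-VEGF library with dox of suffix _290419, the medians in NLS-N-VEGF cells were −0.18 for fibrillar, −0.20 for basement membrane (5 of 5 negative) and −0.01 for other collagens. With the block and all libraries, 9 of the 26 collagens (34.6%) had an unadjusted edgeR p under 0.05 for the mean dox effect. The share of all genes was 9.30%. Of the 9 collagens, Col5a2 passed after adjustment. Over all libraries type I collagen was close to 0 in both populations. Col1a1 had log2 fold changes of −0.01 (SE 0.20) and 0.03 (SE 0.20), and Col1a2 had 0.06 (SE 0.12) and −0.02 (SE 0.12). Col4a1 and Col4a2 lay lower with dox in 5 of 6 pairs each, as did Col3a1, Col6a1, Col6a2 and Col12a1. Col5a1 and Col7a1 lay higher in 5 of 6 pairs. The share of all genes with 5 of 6 pairs in 1 direction was not counted.

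**Figure D4:**
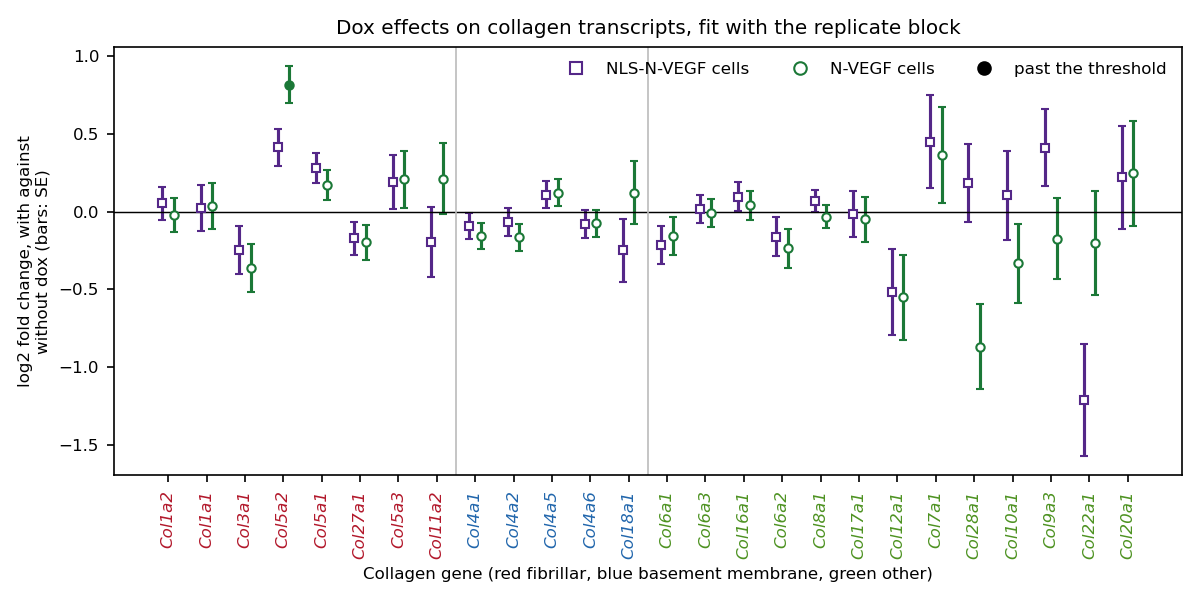
Log2 fold change with against without dox of the 26 collagens in NLS-N-VEGF cells (purple squares) and N-VEGF cells (green circles), from the fit with the replicate block, with SE bars and filled symbols past the threshold. Col5a2 in N-VEGF cells (0.81) is the filled symbol, and Col22a1 in NLS-N-VEGF cells lies lowest at −1.21 with an SE of 0.36.

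The dox effects on several collagens in NLS-N-VEGF cells turned on 1 library. The NLS-N-VEGF library with dox of suffix _290419 stood apart from the other 3 of its suffix, with 629 CPM of Col1a1 against 372 to 439 and 3852 CPM of Col1a2 against 2796 to 3079. The blocked leave-outs were added after seeing the data, and leaving out any other library called 0 collagens in these cells. In the blocked fit without this library, 3 collagens and 118 of 13852 genes (0.852%) were called in NLS-N-VEGF cells. Col22a1 fell by 1.84 (edgeR, SE 0.33, adjusted p 0.0158), Col3a1 by 0.55 (edgeR, SE 0.12, adjusted p 0.0438) and Col6a1 by 0.45 (edgeR, SE 0.10, adjusted p 0.0438) on the log2 scale. Col22a1 had 3.57, 2.26 and 1.14 CPM in the absence and 0.804, 0.736 and 1.36 CPM in the presence of dox, so that the 2 pairs of suffix _120519 went down and the pair of suffix _290419 up. Col3a1 had 641, 595 and 278 CPM in the absence and 499.7, 405 and 295 CPM in the presence of dox, and Col6a1 980, 921 and 656 CPM against 772, 687 and 688 CPM. Both genes thus followed the same pattern.

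Among the libraries of suffix _120519 alone, 2 collagens and 109 genes (0.814%) were called in NLS-N-VEGF cells. These were Col22a1, which fell by 1.92 (edgeR, SE 0.34, adjusted p 0.0317), and Col12a1, which fell by 1.32 (edgeR, SE 0.25, adjusted p 0.0367) on the log2 scale. The NLS-N-VEGF pairs of this fit are also in the blocked fit above, so that the 2 fits are not separate support. Col12a1 had 4.60, 4.90 and 6.07 CPM in the absence and 2.30, 1.40 and 8.64 CPM in the presence of dox. For the mean over both populations in the same libraries, Col5a2 rose, and Col12a1 and Col6a2 fell, among 1.01% of genes called. The mean log2 fold changes were 0.43 (edgeR, SE 0.06, adjusted p 0.00609), −0.95 (edgeR, SE 0.17, adjusted p 0.0317) and −0.32 (edgeR, SE 0.06, adjusted p 0.0393). Without the NLS-N-VEGF library with dox of suffix _290419, the blocked fit of the mean effect called 6 collagens and 202 of 13852 genes (1.46%). Of the 6, Col5a2 was higher and Col3a1, Col6a1, Col6a2, Col12a1 and Col22a1 were lower with dox.

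The 2 populations were then compared, to ask whether collagens responded to dox differently with and without the nuclear localization sequence. For the difference of dox effects (NLS-N-VEGF minus N-VEGF), 0 of 13608 genes (0%) passed the edgeR test without and with the block (0%), and DESeq2 called 0 collagens. Without the block 0 collagens and 116 genes had an unadjusted p under 0.05, and with it 2 collagens and 464 genes did (3.41% of all genes). The highest differences in log2 fold change were those of Col28a1 (1.02, SE 1.14), Col9a3 (0.60, SE 0.44) and Col10a1 (0.44, SE 0.45), and the lowest those of Col22a1 (−1.07, SE 0.61), Col18a1 (−0.39, SE 0.45) and Col5a2 (−0.37, SE 0.44). With the block, Col5a2 differed by −0.40 (SE 0.16, unadjusted p 0.0256 and adjusted p 1.0 in edgeR) and Col28a1 by 1.05 (SE 0.37, unadjusted p 0.0116 and adjusted p 1.0 in edgeR). A difference in the response of Col5a2 between the populations was therefore not shown.

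When the dox-treated cells of both populations were compared (NLS-N-VEGF against N-VEGF), edgeR called 0 genes (0%) without the block and 2 genes (0.0147%) with it, none of them a collagen. The highest log2 fold changes were those of Col28a1 (0.95, SE 0.82), Col9a3 (0.55, SE 0.31) and Col5a3 (0.31, SE 0.20), and the lowest those of Col22a1 (−0.78, SE 0.45), Col10a1 (−0.34, SE 0.32) and Col18a1 (−0.22, SE 0.32). Without dox, edgeR called 0 genes (0%) without and 0 (0%) with the block. Here Col5a3 (0.32, SE 0.20), Col22a1 (0.29, SE 0.41) and Col11a2 (0.24, SE 0.51) were highest and Col10a1 (−0.78, SE 0.32), Col6a2 (−0.17, SE 0.23) and Col12a1 (−0.16, SE 0.57) lowest. Unadjusted p-values under 0.05 without the block numbered 0 collagens and 160 genes with dox, and 1 collagen (Col10a1) and 82 genes without dox. DESeq2 called 0 collagens in both comparisons.

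The label suffix was accompanied by the largest differences in collagen transcripts. Between the 4 libraries of suffix _290419 and the 8 of suffix _120519, with group in the model, edgeR called 16 of the 26 collagens and 6207 of 13608 genes (45.6%). Of the 16, 7 were higher with suffix _290419, beside 3015 of all genes (22.2%), and 9 were lower, beside 3192 of all genes (23.5%). The ranges of the suffixes did not overlap for 10 of the 26, of which 5 were higher and 5 lower, beside 28.0% of all genes. These counts include Col20a1, which reached the mean of 1 CPM only through suffix _290419. Differences by suffix were thus spread widely over the transcriptome.

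Among fibrillar collagens, 2 genes rose and 2 fell with suffix _290419. Col3a1 had 405 to 645 CPM (median 576) with suffix _120519 and 278, 295, 223 and 158 CPM with suffix _290419. These 4 values are in the order NLS-N-VEGF untreated and dox-treated, then N-VEGF untreated and dox-treated, as are those of the genes that follow. It fell by 1.22 on the log2 scale (edgeR, SE 0.13, adjusted p 2.42e-06), without overlap and in all 4 groups, where the folds were 0.310 to 0.653. Its neighbour Col5a2 went the other way, from 168.5 to 294 CPM (median 249) to 280, 511, 274 and 569 CPM. Its log2 fold change was 0.71 (edgeR, SE 0.08, adjusted p 7.58e-06), with folds of 1.21 to 1.97 in the 4 groups. Col11a2, a chain of the minor fibrillar type XI collagen, rose from 1.63 to 3.58 CPM (median 2.93) to 5.43, 6.87, 5.60 and 6.16 CPM, by a log2 fold change of 1.11 (edgeR, SE 0.16, adjusted p 4.78e-05). Col5a1 fell by 0.30 on the log2 scale (edgeR, SE 0.07, adjusted p 0.00275), in 3 of 4 groups.

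Type I and the remaining fibrillar genes did not pass the threshold between the suffixes. Col1a2 had 2648 to 3087 CPM (median 2936) with suffix _120519 and 3079, 3852, 2796 and 2889 CPM with suffix _290419, a log2 fold change of 0.11 (edgeR, SE 0.08, adjusted p 0.282). Col1a1 had 455.5 to 625.5 CPM (median 574.5) and 413, 629, 372 and 439 CPM, with a log2 fold change of −0.28 (edgeR, SE 0.11, adjusted p 0.0565). This difference passed in 4 of 18 alternatives, among them without the NLS-N-VEGF library with dox of suffix _290419. Col27a1 and Col5a3 had log2 fold changes of 0.16 (SE 0.08) and 0.10 (SE 0.13).

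Basement membrane collagens were lower with suffix _290419. All 5 had a negative log2 fold change and 4 of them fell, with a class median of −0.42 against 0.10 for fibrillar collagens, −0.00 for other collagens and 0.01 for all genes tested. Col4a1 went from 402 to 492 CPM (median 440.5) to 297, 318, 276.5 and 269 CPM, by a log2 fold change of −0.61 (edgeR, SE 0.06, adjusted p 1.74e-06). Col4a2 went from 284 to 346 CPM (median 315) to 244, 269, 220 and 206 CPM, by −0.42 (edgeR, SE 0.07, adjusted p 9.87e-05). Neither gene overlapped between the suffixes, and both were lower in all 4 groups. Col18a1 went from 2.80 to 4.03 CPM (median 3.59) to 2.57, 2.55, 1.69 and 2.21 CPM (log2 fold change −0.65, SE 0.16, edgeR adjusted p 0.00294), also without overlap.

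The other type IV chains moved less. Col4a5 fell by 0.19 on the log2 scale (edgeR, SE 0.07, adjusted p 0.0284), a call that 5 of 18 alternatives ended, and Col4a6 had a log2 fold change of −0.05 (edgeR, SE 0.06, adjusted p 0.566). The share of all counts on basement membrane genes was 0.0852% to 0.103% in the 8 libraries of suffix _120519 and 0.0627% to 0.0778% in the 4 of suffix _290419, whereas the fibrillar share overlapped (0.4065% to 0.488% and 0.383% to 0.574%).

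In the other class, the type VI chains fell together with suffix _290419. Col6a1 went from 687 to 1087 CPM (median 948) to 656, 688, 588.5 and 543 CPM, by −0.55 (edgeR, SE 0.10, adjusted p 0.000219). Col6a2 changed by −0.47 (edgeR, SE 0.10, adjusted p 0.000946) and Col6a3 by −0.38 (edgeR, SE 0.07, adjusted p 0.000271). The folds by group were 0.558 to 0.943 for Col6a1, 0.563 to 1.01 for Col6a2 and 0.667 to 0.877 for Col6a3. The fold of 1.01 was that of NLS-N-VEGF cells with dox, where Col6a2 did not fall. Of the 3, the ranges did not overlap for Col6a3, which had 754 to 870.5 CPM (median 819) with suffix _120519 and 659, 703, 600.4 and 555 CPM with suffix _290419.

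Of the 8 scarce collagens of the same class (below 10 CPM), 5 rose and 3 did not pass the threshold. Col28a1, a collagen with von Willebrand factor domains, went from 0.687 to 1.66 CPM to 5.21, 4.38, 4.84 and 2.34 CPM, by a log2 fold change of 1.92 (edgeR, SE 0.17, adjusted p 5.9e-07). Col7a1 went from 0.691 to 2.95 CPM (median 2.32) to 5.30 to 7.05 CPM, by 1.69 (edgeR, SE 0.22, adjusted p 1.98e-05). Col12a1 went from 1.40 to 4.90 CPM (median 3.32) to 6.07, 8.64, 9.15 and 6.36 CPM, by 1.21 (edgeR, SE 0.19, adjusted p 0.000116). None of these genes overlapped between the suffixes, and all were higher with suffix _290419 in the 4 groups.

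Col20a1 (log2 fold change 0.99, SE 0.24, edgeR adjusted p 0.00284) did not overlap either, at 0.488 to 0.964 CPM and 0.991 to 1.81 CPM. Its mean was 0.761 CPM with suffix _120519 and 1.53 CPM with suffix _290419. Col20a1 thus met the 1 CPM rule only through the suffix where it was higher. Its call and lack of overlap are therefore no independent support. Col9a3 rose by 0.49 (edgeR, SE 0.18, adjusted p 0.034), a call that 9 of 18 alternatives ended. Col22a1 (−0.59, SE 0.27), Col10a1 (−0.44, SE 0.20), Col8a1 (−0.09, SE 0.05), Col16a1 (−0.00, SE 0.07) and Col17a1 (0.03, SE 0.10) did not pass the threshold.

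**Figure D5:**
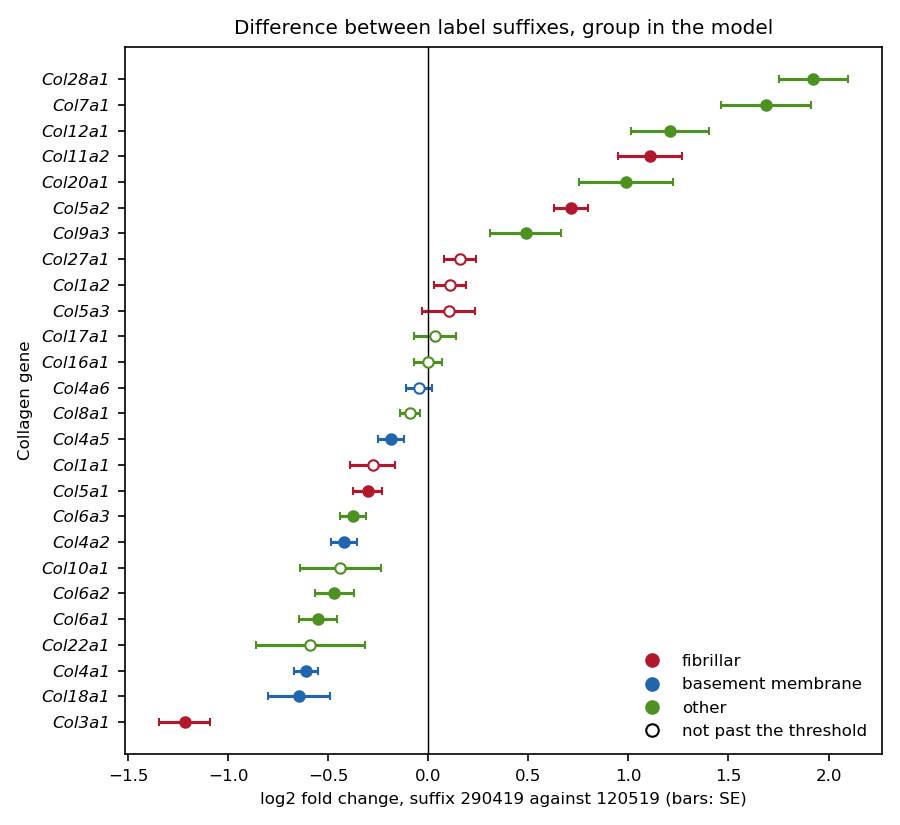
Log2 fold change of suffix _290419 against _120519 for the 26 collagens, ordered by value, with SE bars; red points are fibrillar, blue basement membrane and green other collagens, and open points did not pass the threshold. Col28a1 (1.92) and Col7a1 (1.69) lie highest and Col3a1 (−1.22) lowest, and all 5 blue points lie below 0.

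Genes that act on collagen after its transcription were followed beside it. Of 32 listed genes for collagen assembly (prolyl and lysyl hydroxylases, chaperones, propeptide proteinases and lysyl oxidases), 28 were tested. Loxl4, a lysyl oxidase that cross-links collagen, was the one called for dox with the block and not without it. In NLS-N-VEGF cells it had 12.7, 12.9 and 14.4 CPM in the absence and 21.9, 17.7 and 22.2 CPM in the presence of dox, and in N-VEGF cells 15.7, 13.3 and 17.2 CPM against 19.8, 18.0 and 26.3 CPM. The groups did not overlap in either population, and how often this holds over all genes was not counted. With the block it rose in NLS-N-VEGF cells by 0.63 on the log2 scale (edgeR, SE 0.10, adjusted p 0.0141), beside 0.125% of all genes called. Over both populations it rose by 0.55 (edgeR, SE 0.07, adjusted p 0.000862), beside 0.566% of all genes called.

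Of 11 partners of fibrils and networks (proteoglycans, nidogens, fibronectin and others), 9 were tested, and Dcn was called for the mean dox effect with the block. Decorin, its product, coats collagen fibrils. In NLS-N-VEGF cells Dcn had 73.8, 72.5 and 69.8 CPM in the absence and 55.7, 47.6 and 56.9 CPM in the presence of dox, and in N-VEGF cells 76.9, 81.6 and 65.9 CPM against 55.9, 54.2 and 33.4 CPM. Here too the groups did not overlap in either population, and the share of all genes for which this holds was not counted. The mean log2 fold change was −0.54 (edgeR, SE 0.09, adjusted p 0.00578), beside 0.566% of all genes called. Without the block, 0 genes of these lists or of 8 collagen receptors (7 tested) were called in a comparison of dox or population.

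Between the suffixes, 12 of the 28 assembly genes were called, 10 lower and 2 higher with suffix _290419, beside 45.6% of all genes called (23.5% lower and 22.2% higher). The lowest log2 fold changes were those of Colgalt1, a collagen galactosyltransferase (−0.47, SE 0.05), and Adamts14, a procollagen N-proteinase (−0.44, SE 0.08). The highest, of Loxl2 (0.58, SE 0.24) and Tll1 (0.41, SE 0.28), did not pass. Of the receptors, 4 of 7 were lower, beside 23.5% of all genes, with Itga11 (−1.27, SE 0.38) and Ddr2 (−0.45, SE 0.07) lowest, while Itga10 (0.25, SE 0.22) and Ddr1 (−0.01, SE 0.06) were highest and did not pass.

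Of the 9 partners tested, 3 were lower and 3 higher with suffix _290419, beside 23.5% and 22.2% of all genes. Fn1 (−0.55, SE 0.08) and Hspg2 (−0.47, SE 0.07), the genes of fibronectin and of the basement membrane proteoglycan perlecan, were lowest. Nid1, which encodes nidogen 1, a linker of laminin and type IV collagen, had 190 to 243 CPM with suffix _120519 and 397 to 467 CPM with suffix _290419 (log2 fold change 1.02, SE 0.06, edgeR adjusted p 4.3e-09). Nid1 thus rose where Col4a1 and Col4a2 fell, whereas Nid2, another nidogen gene, fell as they did (−0.40, SE 0.15, edgeR adjusted p 0.0386). Lum, a fibril proteoglycan, was also called and is 1 of the 3 higher. It had 0 to 0.0628 CPM with suffix _120519, below the level of 3 counts, and 0.335 to 1.86 CPM with suffix _290419. Lum passed the low-count filter only through the suffix where it was higher, so that its call is no independent support. All 5 fibroblast markers differed by suffix, 3 higher and 2 lower, with a summed level of 4444 to 6223 CPM in suffix _120519 and 5610 to 6103 CPM in suffix _290419. Their part in the collagen differences was not tested.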

How the data were processed

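RNA was extracted with Trizol and libraries were made with the TruSeq kit v2 (per the labels). The submitters' processing notes name FastQC 0.11.5, Trim Galore, cutadapt 1.10, TopHat2 2.1.0, Bowtie2 2.2.6, HTSeq 0.6.1 and DESeq2 1.18.1, with build GRCm38. The deposited values are raw read counts per gene, not normalised by the authors. Reads shared by overlapping genes, or between strands, can alter counts, and the strand option is not given in the sources used here.

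Collagen members, classes and context lists were chosen with earlier results of these data known. Counts were tested in R 4.3.3 with edgeR 4.0.16 (quasi-likelihood F test, two-sided, TMM scaling, filterByExpr by group, 13608 genes kept, 1 mean per group over 12 libraries; for the suffix, group plus suffix). The threshold was a Benjamini-Hochberg adjusted p of 0.05 in each contrast. CPM use TMM-scaled totals; SE derive from the F statistic. Number and suffix together formed the replicate label. Deviations from group means over 12058 genes correlated by 0.40 to 0.83 in all 18 same-labelled pairs (mean 0.59). Within suffix _120519, pairs with the same number (mean 0.51) and with different numbers (0.14 to 0.68, mean 0.47) were similar, so the shared deviation followed mainly the suffix. The 24 pairs of different suffix were negative (mean −0.61), a sign that subtracting the group means itself favours. The pairing rests on these correlations and not on the labels. The coefficient of variation fell from 15.5% to 7.86% with this block. The labels do not say that libraries came from separate cultures, so p-values measure only the spread between these libraries, which may be technical. Libraries held 13549331 to 18982127 counts. No 2 libraries of a group agreed within sampling noise. Floors of 3 counts cover counting error only.

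Every collagen with a mean of at least 1 CPM is named. In each contrast all members past the threshold were to be named, otherwise the 3 highest and 3 lowest, and between suffixes the 4 highest and 4 lowest of each class. Genes of context lists were named where called for dox or population, or as the 2 highest and 2 lowest by suffix. Nid2 was named in addition, beside Nid1. The scripts were tested on simulated data. Alternatives were DESeq2 1.42.0, RLE scaling, 2 filters, each library left out, the replicate block, the suffix as covariate and subsets of libraries. Exon lengths and positions are from GENCODE M21.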

Additional observations from a re-analysis of the deposited data

How the results depend on the processing

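Between the suffixes, 14 to 19 collagens were called when 1 library was left out and 14 to 17 under the other alternatives, against 16. All genes called numbered 4929 to 7200 and 5532 to 6405, against 6207. Dox in NLS-N-VEGF cells gave 0 collagens in the edgeR fit without a block, 1 (Col5a2) with no filter beyond 1 count and 2 among libraries of suffix _120519. With the replicate block it gave 0, and 0 to 3 when 1 library was left out of that fit. Dox in N-VEGF cells gave 0 collagens, but 1 (Col5a2) with the replicate block, the suffix as covariate, no filter or only suffix _120519, and 0 to 1 in blocked fits without 1 library. The mean dox effect gave 0 collagens, 1 with the block, the covariate or no filter, 3 with only suffix _120519, and 1 to 6 in blocked fits without 1 library. Over all genes, dox in NLS-N-VEGF cells called 3 genes, against 12 with DESeq2, 53 with no filter, 109 among suffix _120519, 17 with the block and 15 with the covariate. The same counts were 5, 8, 36, 16, 15 and 13 in N-VEGF cells and 8, 21, 77, 135, 77 and 73 for the mean effect. For the difference of dox effects they were 0, but 1 with no filter and 4 among suffix _120519. Between dox-treated populations they were 0, but 9, 11, 2 and 2 with no filter, suffix _120519, the block and the covariate, and between untreated populations 0, but 10 with no filter and 5 among suffix _120519. The blocked leave-outs were added after seeing the data. The block changed no other call of a collagen, and the count of 26 collagens with at least 1 CPM was the same with unscaled totals.

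Col5a2 in N-VEGF cells kept a positive log2 fold change of 0.45 to 1.06 over 31 alternatives, 15 of which called it. Col12a1 in NLS-N-VEGF cells, called lower among suffix _120519, had a log2 fold change of 0.08 in the fit without a block when the dox library 2_120519 was left out. Suffix _290419 has 1 library per group, all numbered 2, and its meaning is unknown here. Depth limits genes near 1 CPM, which rest on few counts.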
